A study of Mus musculus with 9 samples.

Results

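Early erythroid progenitors were followed here in single cells from whole mouse knee joints. A cell was counted as one when its raw counts of Car1, Klf1, Gata1 and Pklr summed to 4 or more and the 11 globin genes with symbols starting with Hba- or Hbb- (adult and embryonic, called haemoglobin genes below) took under 20% of its counts. The members were thus chosen by the measured counts of these genes. The rule picked 287 of 16751 cells, 49 from healthy and 238 from sick mice. The joints came from 9 female 129/Sve mice aged 8 weeks and were profiled by Seq-Well, in which each cell is sealed with a barcoded bead in its own well and its polyadenylated RNA is captured there. The 4 healthy mice (numbered 1 to 4) had received phosphate-buffered saline in the left knee. The 5 sick mice (numbered 1, 3, 4, 5 and 6) had first been sensitised to methylated bovine serum albumin (mBSA), which was then injected into the left knee to give antigen-induced arthritis. All were killed 1 week after the injection, and the mouse was the replicate throughout. The labels name whole joints as the tissue and give no sort, so a cell could come from bone marrow, synovium or blood left in the preparation. The labels give no sequencing batch.

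Erythropoiesis makes red cells from progenitors in the bone marrow. The transcription factors Gata1 and Klf1 switch on the globin, haem and membrane genes, and erythropoietin, acting through its receptor Epor, keeps the cells alive and dividing. Early progenitors carry much ribosome and cell cycle machinery and little haemoglobin, and later stages fill with haemoglobin while they lose most other RNA. Car1 encodes carbonic anhydrase 1 and is used as a marker of the early steps, Pklr encodes the pyruvate kinase of red cells and liver, Nfia is a transcription factor of the erythroid branch, and Atp7b is a copper transporter.

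Cell numbers differed widely between mice and set what could be tested. The gate held 25, 9, 4 and 11 cells in healthy mice 1 to 4 and 42, 77, 48, 33 and 38 in sick mice 1, 3, 4, 5 and 6. Counts summed over the progenitors of a mouse ran from 7375 in healthy mouse 3 to 269469 in sick mouse 3, and levels are given as CPM, the counts of a gene scaled to the same total in every mouse. A progenitor had a median of 2755 counts and 1463 detected genes, and a haemoglobin share of 4.63%. None of the 287 shared a barcode with a cell of another library. The libraries of healthy mice 3 and 4 stood apart: 32.2% and 39.7% of their cells gave 5% or more of their counts to Gm42418, a gene that overlaps a ribosomal RNA unit, against 2.52 to 13.2% in the other 7 mice. For comparison, 2345 haemoglobin-rich cells (50% or more haemoglobin counts) and 1106 granulocyte progenitors (4 or more counts of Mpo, Elane, Prtn3 and Ctsg, under 20% haemoglobin, outside the erythroid gate) were taken from the same joints.

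Every gene of the label was found in the gated cells, and Nfia and Atp7b, which the gate did not use, were there too. Car1 had a count in 284 of 287 progenitors (99%, exact 95% binomial interval 97 to 99.8%), so it carried most of the gate. Its level was 1665, 1998, 2983 and 1929 CPM in healthy mice 1 to 4 and 2073, 1737, 1932, 1989.6 and 1948 CPM in sick mice 1, 3, 4, 5 and 6, and the groups overlapped. Klf1 was counted in 47.4% of progenitors, Pklr in 36.9% and Gata1 in 19.2%. These values follow from the rule and are descriptions. Nfia was counted in 102 progenitors (35.5%, interval 30 to 41.4%), in 0.597% of haemoglobin-rich cells and in 1.99% of granulocyte progenitors. Atp7b was counted in 48 (16.7%, interval 12.6 to 21.6%), against 0.213% and 0.542% in those cells. The median depth was 2755 counts in progenitors, 1263 in haemoglobin-rich cells and 1805 in granulocyte progenitors, and the part of depth in these shares was not tested. Intervals cover counting error only.

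**Figure D1:**
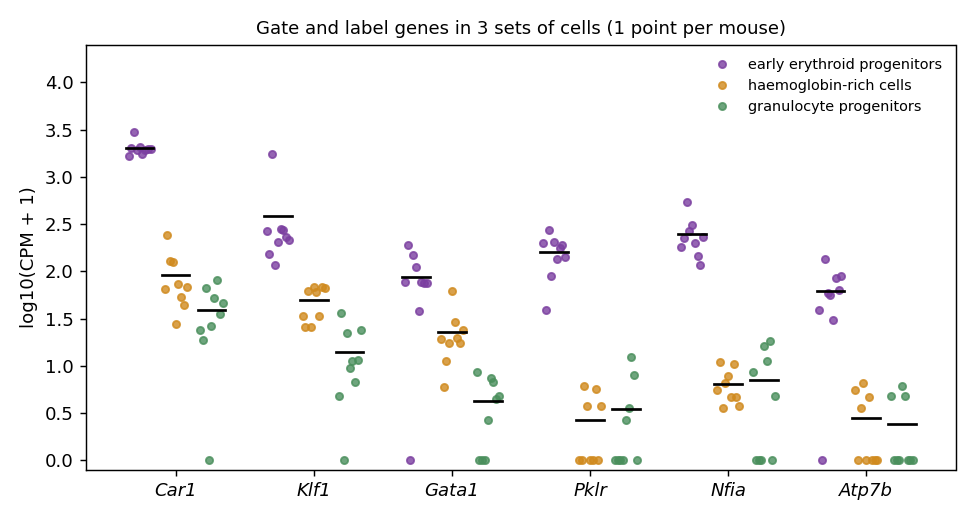
Level of the 4 gate genes and of Nfia and Atp7b in 3 sets of cells, as log10(CPM + 1), with 1 point per mouse (9 mice) and a black bar at the mean. The Nfia points of the progenitors lie between 115 and 542 CPM and above every point of the other 2 sets, while Atp7b was at 0 in healthy mouse 2.

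The CPM values do not rest on single cells having a count, and by them too both genes were highest in the progenitors. Nfia was at 245 ± 126 CPM in the progenitors, 5.43 ± 2.76 in haemoglobin-rich cells and 6.02 ± 6.91 in granulocyte progenitors, and 18 and 42.2 times those 2 with haemoglobin left out (SD, n = 9 mice), and it was higher in the progenitors of all 9 mice. Its level was 179, 226, 542 and 263 CPM in healthy mice 1 to 4 and 305, 200.4, 143, 115 and 229 CPM in sick mice 1, 3, 4, 5 and 6. The highest value belonged to healthy mouse 3 with 4 cells, and the groups overlapped. Atp7b was at 61.2 ± 38.9 CPM in the progenitors, 1.82 ± 2.29 in haemoglobin-rich cells and 1.42 ± 2.16 in granulocyte progenitors, and 13.8 and 45.4 times those 2 with haemoglobin left out. Klf1 was at 263, 151, 1763 and 117 CPM in healthy mice 1 to 4 and 203, 278, 272, 230.4 and 214 CPM in sick mice 1, 3, 4, 5 and 6, and the 1763 CPM of healthy mouse 3 rest on 13 counts.

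The 250 bases upstream of the start of the label genes and of Epor were read from RefSeq promoters (GRCm38.p6), because Gata1 and Klf1, which the gate counts, are known to bind GATA and CACCC letters. Capitals mark AGATAA and CACCC on either strand (TTATCT and GGGTG on the reverse), and neither motif overlaps the other. The windows of Pklr, at the first of its 2 starts (chr3:89135892-89136141, plus strand), and of Epor (chr9:21963577-21963826, minus strand) are shown because they held both motifs. Each is written 5′ to 3′ on the gene's strand.
Pklr: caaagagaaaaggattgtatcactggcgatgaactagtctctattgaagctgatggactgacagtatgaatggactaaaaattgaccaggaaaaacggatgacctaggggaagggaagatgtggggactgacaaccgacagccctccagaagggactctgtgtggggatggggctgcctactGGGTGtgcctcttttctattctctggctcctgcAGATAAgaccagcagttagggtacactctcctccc
Epor: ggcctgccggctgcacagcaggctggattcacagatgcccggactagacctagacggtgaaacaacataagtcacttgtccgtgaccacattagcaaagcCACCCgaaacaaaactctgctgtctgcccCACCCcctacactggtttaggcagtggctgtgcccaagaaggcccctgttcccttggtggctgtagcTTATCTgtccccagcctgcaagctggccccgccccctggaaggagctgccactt
Klf1, Gata1 and Atp7b held CACCC alone. Nfia and the second start of Pklr held neither, and Car1 was not among the promoters. Over all 32851 promoters of that length, 9.99% held AGATAA, 52% held CACCC and 4.38% held both. These letters are a description of the windows and show no binding. By the GENCODE annotation of GRCm38, whose starts can differ from those of RefSeq, the genes lie at chr3:14766216-14808368, minus strand (Car1), chr8:84901928-84905291, plus strand (Klf1), chrX:7959260-7978071, minus strand (Gata1), chr3:89136142-89146784, plus strand (Pklr), chr4:97772734-98118874, plus strand (Nfia) and chr8:21992785-22060305, minus strand (Atp7b), and all are protein-coding.

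Nfia and Atp7b were also counted just outside the edge of the gate sum. The 72 cells with a gate sum of exactly 4 had Nfia at 135 CPM and Atp7b at 35.3 CPM, and the 76 cells just outside, with a sum of 3, had 123 and 27.3 CPM. The 42 cells with a sum of 5 had 77.3 and 68.7 CPM. Groups this small can neither show nor exclude a step. On the haemoglobin side, 94 cells passed the gate sum but held 20% or more haemoglobin. Their Nfia was 36.8 CPM and their Slc4a1, the anion exchanger of the red cell membrane, 921 CPM, against 205 and 338 CPM over the 287. Directly at the limit, 16 cells with a little under 20% haemoglobin had Nfia at 80.3 CPM and 14 cells with 20% or slightly more had 67 CPM.

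Outside the gate, the genes that stood farthest above all other cells of the joints were led by Nfia and then by genes of chaperonin, ribosome assembly and lipid handling. The comparison is a description, since the same counts chose the cells. The mean ratio of CPM in progenitors to CPM in other cells was 16.8 for Nfia and 4.02 to 7.3 for the next 19 genes with at least 200 CPM and a count in every mouse. Mns1, a protein of the sperm and cilium skeleton, was at 204 ± 105 CPM against 27.9 ± 7.11 (SD, n = 9 mice). Ugcg, which makes glucosylceramide, was at 233 ± 131 CPM against 34.2 ± 5.72. Abcb4, a phospholipid flippase best known from liver, was at 284 ± 254 CPM against 49.1 ± 11.3. Against haemoglobin-rich cells Abcb4 was only 1.63 times as high with haemoglobin counts left out, and against granulocyte progenitors 35.9 times, so it stood out among erythroid cells of both stages. Spire1, an actin nucleator, was alike, with ratios of 1.35 and 12.1.

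Hspd1 and Hspe1 together form the mitochondrial chaperonin. Hspd1 was at 634 ± 199 CPM against 117 ± 48 in other cells and Hspe1 at 508 ± 223 CPM against 119 ± 62.5. Both stood apart from the late cells more than from the other progenitors: with haemoglobin left out, Hspd1 was 11.9 times as high as in haemoglobin-rich cells and 2.19 times as high as in granulocyte progenitors. Gnl3 and Nop58, nucleolar proteins of ribosome assembly, were at 275 ± 66.6 CPM against 57.6 ± 12.4 and 508 ± 143 CPM against 122 ± 21.9. Others were Gspt1, a translation termination factor, Nedd4, a ubiquitin ligase, Cfdp1, a chromatin protein, Rfc4, a clamp loader of DNA replication, and AC151846.1, with ratios of 4.17 to 4.4. Another 5 (Hspd1-ps3, Gm13094, Gm6576, Gm5963 and Gm7424) are annotated as processed pseudogenes, whose counts may come from their parent genes. All 20 were above other cells in 9 of 9 mice.

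The gene lists were compared in the same way, by summed CPM with haemoglobin counts left out, because haemoglobin takes at least 50% of the counts of the late cells by definition. On that scale 58.6% of all 12454 genes compared were higher in progenitors than in haemoglobin-rich cells and 49.3% of 15239 were higher than in granulocyte progenitors. Of the erythroid transcription factors, 13 of 23 were higher than in haemoglobin-rich cells and 16 of 23 higher than in granulocyte progenitors, so only the second share was above that of all genes. For single genes the CPM with haemoglobin counted comes first, and the ratios with it left out follow. Bcl11a, the repressor of fetal globin genes, was at 144 ± 97.5 CPM in the progenitors, 9.61 ± 7.63 in haemoglobin-rich cells and 32.5 ± 14.8 in granulocyte progenitors, and 6.24 and 4.54 times those 2 with haemoglobin left out. Myb, a factor of early blood progenitors, was at 129.9 ± 53.5 CPM in the progenitors, 27.1 ± 16.1 in haemoglobin-rich cells and 293 ± 163 in granulocyte progenitors, and 1.95 and 0.451 times those 2 with haemoglobin left out, below granulocyte progenitors. Tal1, a partner of Gata1, was at 137 ± 72.8 CPM in the progenitors, 90.4 ± 32.8 in haemoglobin-rich cells and 35.9 ± 46.8 in granulocyte progenitors, and 0.593 and 3.81 times those 2 with haemoglobin left out. Sox6, another erythroid factor, was at 65.3 ± 46.3 CPM in the progenitors, 98.8 ± 48.2 in haemoglobin-rich cells and 12.4 ± 13.4 in granulocyte progenitors, and 0.254 and 5.35 times those 2 with haemoglobin left out. With haemoglobin left out, Tal1 and Sox6 were thus below haemoglobin-rich cells and Bcl11a and Myb above them. Gata2, which precedes Gata1 in the lineage, had 8 counts in all, in 7 of 287 cells (2.44%). All of them came from sick mice, which also gave most of the gated cells.

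Signalling genes were sparse. Epor was counted in 30 progenitors (10.5%, interval 7.16 to 14.6%), 2.52% of haemoglobin-rich cells and 0.995% of granulocyte progenitors. It was at 18.8, 113, 271 and 0 CPM in healthy mice 1 to 4 and 54.8, 37.1, 15.1, 31.4 and 44.3 CPM in sick mice 1, 3, 4, 5 and 6, and the groups overlapped. The healthy values rest on few counts, and the 271 CPM of healthy mouse 3 come from 4 cells. Kit, the receptor for stem cell factor, was counted in 37 progenitors (12.9%), 0.64% of haemoglobin-rich cells and 9.13% of granulocyte progenitors. The signalling list as a whole was 0.471 times its level in haemoglobin-rich cells and 0.666 times that in granulocyte progenitors, below both in 9 of 9 mice. Genes of stem and earliest progenitors summed to 167 CPM and were 0.292 times as high as in granulocyte progenitors. Their surface marker Cd34 had a mean of 1.65 CPM, and Mecom and Meis1 had no count in any of the 287 cells.

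Haem, iron and membrane genes placed the cells between granulocyte progenitors and haemoglobin-rich cells. Haem synthesis genes summed to 2.41 times their level in granulocyte progenitors and 0.455 times that in haemoglobin-rich cells, above the first and below the second in all 9 mice. The members of that list split. Alad, the enzyme of the second step, was at 478 ± 64.2 CPM in the progenitors, 263 ± 71.6 in haemoglobin-rich cells and 81.8 ± 31.9 in granulocyte progenitors, and 0.717 and 5.96 times those 2 with haemoglobin left out. With haemoglobin left out, Tmem14c, a carrier of a haem precursor, was 2.5 times its level in haemoglobin-rich cells, while Slc25a37, the mitochondrial iron importer, was 0.156 times and Fech, which inserts the iron, 0.179 times. Iron genes were 2.06 and 0.665 times as high as in the 2 comparison sets. The transferrin receptor Tfrc was at 367 ± 159 CPM in the progenitors, 183 ± 54 in haemoglobin-rich cells and 97.6 ± 37.7 in granulocyte progenitors, and 0.798 and 3.88 times those 2 with haemoglobin left out. Membrane genes were 3.48 times their level in granulocyte progenitors, with 23 of 25 members higher, and 0.359 times that in haemoglobin-rich cells, with 1 of 25 higher. Ank1, which ties membrane proteins to the skeleton beneath, was 17.4 times and Ermap, an erythroid surface protein, 12.9 times as high as in granulocyte progenitors. Proteins of later stages were 0.35 times their level in haemoglobin-rich cells, with 0 of 14 members higher. Car2, carbonic anhydrase 2, was at 6812 ± 875 CPM in the progenitors, 3486 ± 862 in haemoglobin-rich cells and 511 ± 205 in granulocyte progenitors, and 0.769 and 13.6 times those 2 with haemoglobin left out.

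Ribosome biogenesis was the list that set the progenitors most apart from the haemoglobin-rich cells among the 15 lists that hold no cell type markers. Its sum was 4.52 times as high, in 9 of 9 mice and for 23 of 23 members, and 1.39 times as high as in granulocyte progenitors. Ncl, nucleolin, was at 2148 ± 263 CPM in the progenitors, 160.4 ± 64.7 in haemoglobin-rich cells and 1442 ± 411 in granulocyte progenitors, and 5.43 and 1.52 times those 2 with haemoglobin left out. Npm1, nucleophosmin, was at 869.7 ± 259 CPM in the progenitors, 44.7 ± 30.4 in haemoglobin-rich cells and 553 ± 152 in granulocyte progenitors, and 7.98 and 1.6 times those 2 with haemoglobin left out. S phase genes were 1.96 times as high as in haemoglobin-rich cells and 1.59 times as high as in granulocyte progenitors, in 9 of 9 mice each. G2 and M phase genes were 0.751 and 1.58 times as high. Dut, which removes dUTP before replication, was at 599 ± 251 CPM in the progenitors, 82 ± 23.6 in haemoglobin-rich cells and 279 ± 38.8 in granulocyte progenitors, and 2.95 and 2.22 times those 2 with haemoglobin left out, while Ccne1, a cyclin of the entry into S phase, was 7.07 times its level in granulocyte progenitors. Mki67, a proliferation marker, was counted in 83.6% of progenitors, 53.5% of haemoglobin-rich cells and 55.0% of granulocyte progenitors at their different depths. Glycolysis genes were 0.499 times and the 10 mitochondrially encoded genes of the list 0.947 times their level in granulocyte progenitors. Interferon-stimulated genes were 0.277 times their level in haemoglobin-rich cells and 0.642 times that in granulocyte progenitors, and MHC class I genes 0.722 and 0.713 times.

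**Figure D2:**
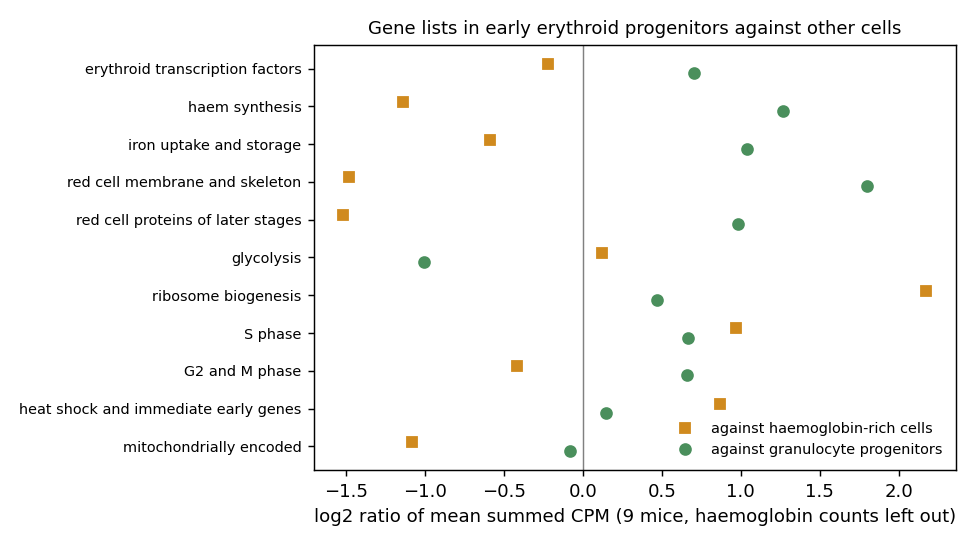
Log2 ratio of the mean summed CPM of 11 gene lists in early erythroid progenitors to that in haemoglobin-rich cells (squares) and in granulocyte progenitors (circles), over 9 mice, with haemoglobin counts left out. Ribosome biogenesis lies farthest to the right for the squares (a ratio of 4.52), and the membrane list farthest to the right for the circles (a ratio of 3.48).

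Within the progenitors, the levels of several genes went with the haemoglobin share. The cells were ordered by this share, which the gate limits, so the following is a description. Of the cells, 28 held under 2%, 174 held 2 to under 8% and 85 held 8 to under 20%. Of the lowest bin, 20 cells came from sick mouse 1, so its values lean on that mouse. Across the 3 bins in this order Nfia was at 482, 217 and 115 CPM, Car1 at 2891, 2065 and 1288 CPM, Pklr at 234, 184 and 94.4 CPM and Bcl11a at 372, 138 and 67.5 CPM, each lower with more haemoglobin. Klf1 ran the other way, at 165, 231 and 317 CPM. Car1, Pklr and Klf1 are genes of the gate sum, so their courses are bound to the rule that chose the cells. A cell with fewer Car1 counts needed more of the other gate genes to enter. Slc4a1 was at 27.5, 138 and 796 CPM, higher with more haemoglobin, on 2 counts in the lowest and 236 in the highest bin.

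Slc4a1 with Slc25a37 (41.3, 125 and 398 CPM), Abcb10 (a transporter of the inner mitochondrial membrane that erythroid cells need for haem, 96.4, 194 and 506 CPM) and Isg20 (an exonuclease, 0, 113 and 266 CPM) were among the 10 genes highest in the top bin against the lowest. Hspa1b, an inducible heat shock protein, was another, as were Elane (124, 484 and 998 CPM), Prtn3 and Mpo, primary granule proteins of granulocyte progenitors. Hspa1b had no count in the progenitors of sick mouse 1, which gave 20 of the 28 cells of the lowest bin. In the top bin it ran from 0 to 550 CPM between the mice with 5 or more cells there. Genes higher in the lowest bin included Bcl11a, Sec31a (a vesicle coat protein), Pum3, Msl3 and Gm14681. The other 5 of the 10 were antibody genes (Igkv4-55, Ighv14-3, Ighg1, Igkc and Jchain), and for each of them most counts of that bin lay in 1 cell. For Igkc, 174 of 196 counts of the lowest bin lay in 1 cell, and for Ighg1 162 of 165. Bcl11a, by contrast, was spread over 12 of the 28 cells.

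By list, the sums across the 3 bins were 2120.1, 2983 and 4921 CPM for haem synthesis and 2588, 3605 and 6873 CPM for the membrane. Ribosome biogenesis was level in the lower bins and less in the top one, at 9719, 10141 and 4621 CPM, with Npm1 at 1101, 1282 and 279.9 CPM. The S phase list stood at 4337, 4919 and 6445 CPM and the G2 and M phase list at 7806, 7901 and 11467 CPM, both highest in the cells with most haemoglobin. Erythroid transcription factors stood at 2561, 1826 and 1825 CPM. The bins differed little in depth, with medians of 2298, 2833 and 2755 counts per cell.

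**Figure D3:**
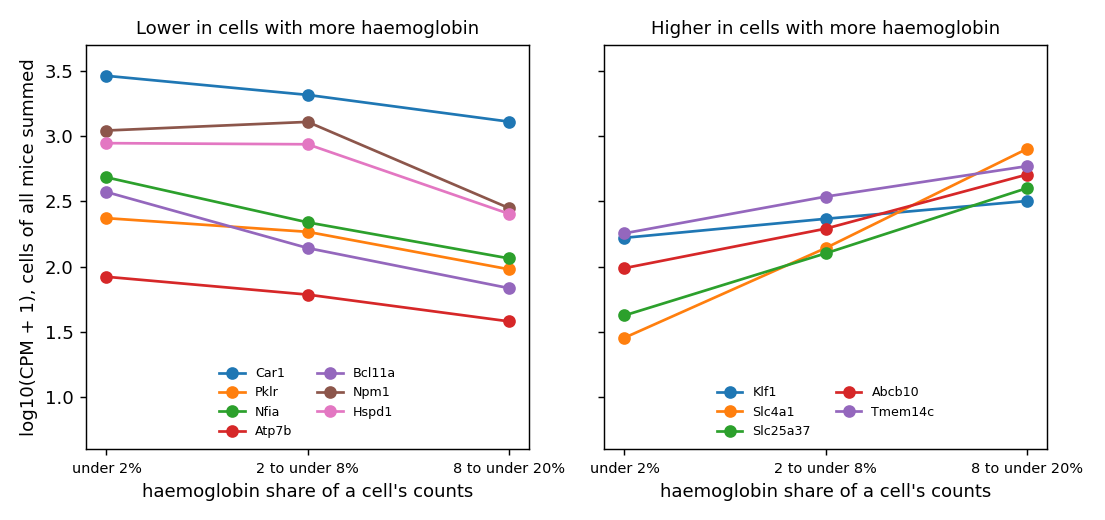
Level of 12 genes in progenitors binned by their haemoglobin share (28, 174 and 85 cells, summed over all mice), as log10(CPM + 1). Nfia goes from 482 to 115 CPM on the left, and Slc4a1 from 27.5 to 796 CPM on the right. Car1, Pklr and Klf1 are gate genes.

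Markers of other cell types were counted in the gated cells, above all those of neutrophils. The 10 neutrophil markers, led by the calcium-binding proteins S100a8 and S100a9, summed to 27981, 15835, 29831 and 42489.8 CPM in healthy mice 1 to 4 and to 83707, 37845, 52057, 42002 and 43840.5 CPM in sick mice 1, 3, 4, 5 and 6, and 284 of 287 progenitors held at least 3 of their counts. In haemoglobin-rich cells and granulocyte progenitors these genes were higher still: the progenitor sum was 0.375 and 0.54 times theirs with haemoglobin left out. The 2 groups overlapped only through healthy mouse 4, which lay above sick mice 3 and 5. Eosinophil markers summed to 29.2 to 2953 CPM in healthy and 41.9 to 1354 CPM in sick mice; the highest value was healthy mouse 1, where Prg2, a granule protein, reached 2219.7 CPM. Granulocyte progenitor markers summed to 566 to 1740.0 CPM in healthy and 590.3 to 2657 CPM in sick mice. At least 3 counts of the megakaryocyte, mast cell, eosinophil, granulocyte progenitor and B lineage markers together were held by 111 of the 287 cells. Doublets were not called.

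The remaining marker lists were low. Megakaryocyte markers summed to 0 to 18.8 CPM in healthy and 10.5 to 44.5 CPM in sick mice, with 6 of 10 at 0 in every progenitor, among them Gp1bb, Gp1ba, Gp6, Ppbp and Treml1. Mast cell or basophil markers summed to 0 to 132 CPM in healthy and 67.9 to 134 CPM in sick mice, with Cpa3, Ms4a2 and Cma1 at 0. T or NK cell markers summed to 0 to 117 CPM in healthy and 30.2 to 193 CPM in sick mice, with Cd3e, Trac and Klrb1c at 0, and B lineage markers to 0 to 117 CPM in healthy and 39.1 to 147 CPM in sick mice. Monocyte or macrophage markers summed to 113 to 461 CPM in healthy and 229 to 701 CPM in sick mice, and those of plasmacytoid dendritic cells to 0 to 271 CPM in healthy and 30.2 to 85.4 CPM in sick mice. Fibroblast or bone markers summed to 0 to 271 CPM in healthy and 20.9 to 879.5 CPM in sick mice, and skeletal muscle markers to 117 to 407 CPM in healthy and 102 to 362 CPM in sick mice.

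The share of cells in the gate did not differ between the groups beyond the spread of the mice. It was 2.38%, 1.03%, 0.286% and 0.899% in healthy mice 1 to 4 and 2.01%, 2%, 3.44%, 1.46% and 1.47% in sick mice 1, 3, 4, 5 and 6. Healthy mouse 1 lay above all sick mice but number 4, and the other 3 healthy mice lay below every sick mouse. The means were 1.15% ± 0.882 (SD, n = 4) and 2.07% ± 0.809 (n = 5), a ratio of 1.81 (exact two-sided permutation p = 0.111; the smallest p the 126 splits allow is 0.0159). The value depended on what the cells were divided by. As a share of cells with under 20% haemoglobin healthy mice had 3.3% ± 0.88 and sick mice 3.1% ± 1.45 (exact permutation p = 0.825), with the sick mean the lower one. As a share of progenitors plus haemoglobin-rich cells it was 7.02% ± 6.91 and 16.7% ± 8.68 (exact permutation p = 0.0952). Without healthy mouse 1 the exact permutation p was 0.0357, the smallest its 56 splits allow. Without the gated cells that hold markers of other lineages it was 0.0317, at 0.549% ± 0.307 and 1.41% ± 0.805.

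Depth bears on such a share, since a shallow cell reaches 4 gate counts less easily. With every cell thinned to 800 counts and a gate sum of 2 or more, which left out 383 to 573 shallower cells per healthy mouse and 619 to 1670 per sick mouse, the shares were 1.3% ± 0.786 and 2.87% ± 1.05 (exact permutation p = 0.0794). A thinned gate sum of 1 or more, chosen after the data were seen, gave 3.19% ± 2.45 and 7.37% ± 1.91 (exact permutation p = 0.0476).

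**Figure D4:**
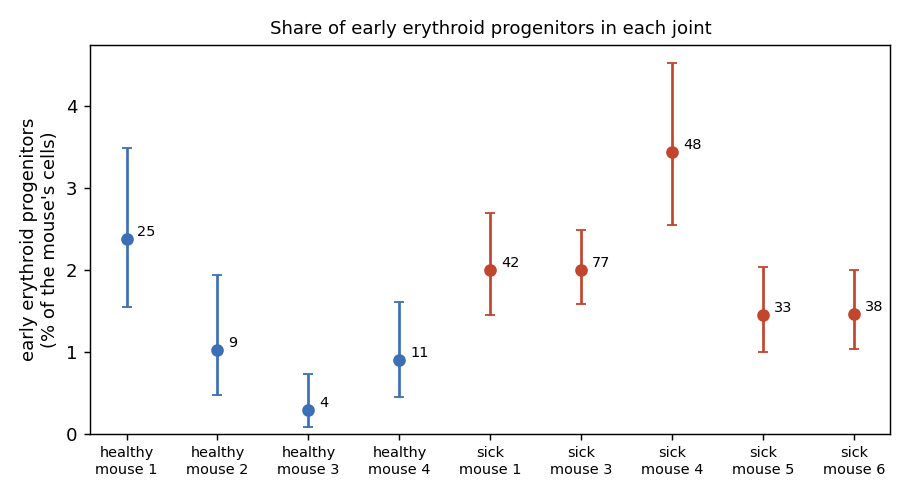
Early erythroid progenitors as a percent of all cells of each mouse, with exact 95% binomial intervals that cover counting error only; the number beside a point is its cells, healthy mice are blue and sick mice red. Healthy mouse 1 (2.38%) lies inside the range of the sick mice (1.46 to 3.44%), and healthy mice 2 to 4 lie at or under 1.03%.

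Sick and healthy progenitors were then compared in the 7 mice with at least 10 gated cells (healthy mice 1 and 4, 5 sick mice, 274 cells). The median count per progenitor was 2769.5 ± 330.2 in healthy and 2735 ± 271 in sick mice (SD, n = 2 and 5). All genes with symbols starting with mt- together took 6.56 ± 2.55% in healthy and 3.72 ± 1.1% in the sick (exact permutation p = 0.19, 0.444 adjusted over 7 measures). G2 and M phase genes took 1.07 and 0.882%, S phase genes 0.547 and 0.533%, ribosomal protein genes 8.73 and 9.45% and Gm42418 1.92 and 1.23%. None of the 7 measures passed, and with 2 mice against 5 the smallest exact p is 0.0952, so none could.

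Across all genes no difference passed a false discovery rate of 0.05. edgeR's quasi-likelihood test on counts summed per mouse called 0 of 3178 tested genes in either direction; at an unadjusted p under 0.05 it had 137 higher in sick mice (4.31% of the tested genes) and 91 lower (2.86%). DESeq2 also called 0. Its unadjusted p was under 0.05 for 186 genes that rose in sick mice and 126 that fell. These were out of 18142 genes and not the 3178 of edgeR, so the counts of the 2 tools cannot be compared directly. Over all 9 mice, 95 tested genes (2.99%) were higher in every sick than in every healthy mouse and 27 (0.85%) lower in every one. A fit to all 9 mice, chosen after the data were seen and including the 4 cells of healthy mouse 3 and the 9 of healthy mouse 2, called 8 of 2114 genes (0.378%), all higher in sick mice. These were Igkc, H2-D1, Ifi27l2a, Ifitm3, Gm1821, Ubb, Hspa1b and B2m. Leaving out 1 mouse of the 7 gave up to 3 higher calls (without sick mouse 1: Igkc, Hspa1b and H2-D1) and up to 2 lower (without healthy mouse 4: Epx and Fabp4, genes of eosinophils and fat cells). Without healthy mouse 1 there was 1 in each direction (Retnlg and Gm45890). These calls lie outside the rule for named genes and are given after their values were seen.

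MHC class I and interferon-stimulated genes differed between the groups without overlap in several members, though none passed the adjusted threshold in the 7 mice. H2-D1, a class I heavy chain (chr17:35262730-35267499, plus strand, GRCm38), was at 282, 264, 136 and 321 CPM in healthy mice 1 to 4 and 642, 905, 596, 1058 and 649 CPM in sick mice 1, 3, 4, 5 and 6. The lowest sick mouse lay above the highest healthy one. The log2 difference was 1.42 ± 0.31 (SE), with an adjusted p of 0.144 in edgeR and of 0.0104 in the edgeR fit to all 9 mice. B2m, the light chain all class I molecules share, was at 386, 490.1, 136 and 438 CPM in healthy mice 1 to 4 and 775, 905, 634, 1194 and 886 CPM in sick mice 1, 3, 4, 5 and 6, again without overlap. Its log2 difference was 1.15 ± 0.29 (SE) (edgeR adjusted p = 0.174, and 0.0455 over all 9 mice). H2-K1, another class I heavy chain, was at 122, 151, 136 and 58.4 CPM in healthy mice 1 to 4 and 289, 442, 196, 314 and 317 CPM in sick mice 1, 3, 4, 5 and 6. Its log2 difference was 1.65 ± 0.40 (SE) (edgeR adjusted p = 0.158).

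Of the 10 class I genes, 5 passed the filter on low counts. Each of these was positive, 3 had an unadjusted p under 0.05, and 3 were higher in every sick than in every healthy mouse, beside 4.31% and 2.99% of all tested genes. The median log2 difference was 1.15, against 0.02 over all tested genes. The summed list stood at 978, 1018, 542 and 1052 CPM in healthy mice 1 to 4 and at 1964, 2616, 1660.0, 2827 and 2007 CPM in sick mice 1, 3, 4, 5 and 6.

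Several interferon-stimulated genes had no count at all in healthy progenitors. Ifi27l2a, an interferon-induced membrane protein, was at 0 in healthy mice 1 to 4 and at 117, 108, 189, 41.9 and 111 CPM in sick mice 1, 3, 4, 5 and 6. Against a floor of 3 counts over the healthy group this was at least 6.73-fold higher in sick mice (edgeR adjusted p = 0.144, and 0.0107 over all 9 mice). Isg15, a ubiquitin-like protein, was at 0 in the healthy mice and at 46.9, 59.4, 121, 126 and 88.6 CPM in the sick mice, at least 4.74-fold higher (edgeR adjusted p = 0.174). Ifitm3, which blocks virus entry, was at 141, 0, 0 and 29.2 CPM in healthy mice 1 to 4 and 430.3, 442, 272, 367 and 221 CPM in sick mice 1, 3, 4, 5 and 6. The groups did not overlap, and the log2 difference was 1.73 ± 0.42 (SE) (edgeR adjusted p = 0.158, and 0.0126 over all 9 mice). Ifi27 had 3 healthy counts, all in mouse 1, and 84 sick ones, a ratio of 6.42 (95% counting interval 2.12 to 31.8).

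Of the 45 interferon-stimulated genes listed, 11 passed the filter. Each was positive, 9 had an unadjusted p under 0.05, and 7 were higher in every sick than in every healthy mouse, beside 4.31% and 2.99% of all tested genes. A gene at 0 in healthy mice passes the filter through the sick mice alone, so this count does not stand for the whole list, of which Ifit3 and Mx1 had no count in any progenitor. The summed list stood at 705, 641, 271 and 643 CPM in healthy mice 1 to 4 and at 2167, 2238, 2309, 2157 and 1712 CPM in sick mice 1, 3, 4, 5 and 6. Neutrophil markers lay in the same direction in these cells: 9 of 9 tested were positive, 7 with an unadjusted p under 0.05, at a median log2 difference of 0.81. S100a8 was at 14005, 8295, 17085 and 19959 CPM in healthy mice 1 to 4 and 41568, 20366, 27828, 20639.6 and 22079 CPM in sick mice 1, 3, 4, 5 and 6. The part of neutrophil RNA in the interferon and class I values was not tested. Without healthy mouse 4, whose library stood apart, the log2 difference was 1.53 for H2-D1, 1.26 for B2m and 1.38 for Ifitm3, with edgeR adjusted p-values of 0.234, 0.272 and 0.356. Without healthy mouse 1 that of Ifitm3 was 3.63 (edgeR adjusted p = 0.357).

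**Figure D5:**
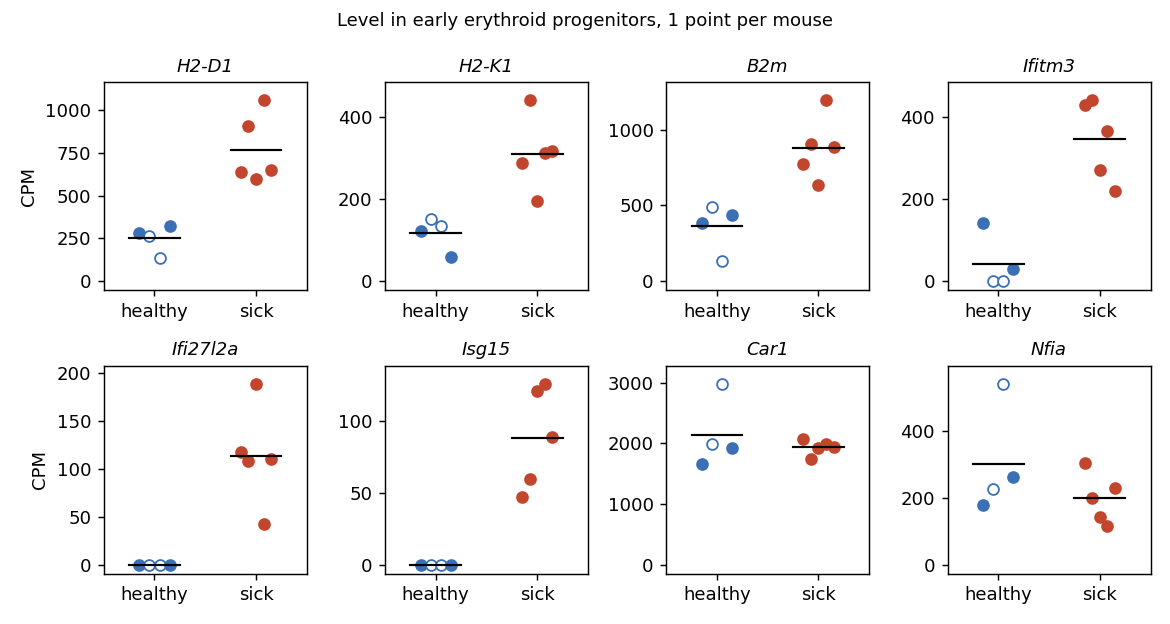
Level of 8 genes in early erythroid progenitors, in CPM, with 1 point per mouse and a bar at the group mean; open points are healthy mice 2 and 3, with under 10 gated cells and outside the fit. The sick points of H2-D1, H2-K1, B2m, Ifitm3, Ifi27l2a and Isg15 lie above all healthy points, and those of Car1 and Nfia overlap with them.

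Of 22 heat shock and immediate early genes, 20 were tested, 17 were positive and 6 had an unadjusted p under 0.05 and were higher in sick mice, beside 1639 of 3178 tested genes positive and 4.31% higher at that p. The list had a median log2 difference of 0.55. Atf3, Hspa1a and Hspa1b, with 0 or 1 healthy counts each, are among the 6. They passed the filter on low counts through the sick mice alone, so this count does not stand for the whole list. The inducible chaperones Hspa1a and Hspa1b ranged widely among the sick mice. Hspa1b was at 0, 0, 0 and 29.2 CPM in healthy mice 1 to 4 and 0, 141, 121, 314 and 546 CPM in sick mice 1, 3, 4, 5 and 6. With 1 healthy count against 158 sick ones the ratio was 36.2 (95% counting interval 6.41 to 1439.8), and sick mouse 1 was at 0 like 3 of the healthy mice. Hspa1a was at 0, 104, 15.1, 209 and 576 CPM in the sick mice and had 1 healthy count. Atf3, a stress-induced transcription factor, was at 0 in the healthy mice and at 46.9, 70.5, 45.3, 126 and 118 CPM in the sick mice, at least 4.51-fold higher (edgeR adjusted p = 0.251). Jun, part of the AP-1 factor, had a log2 difference of 0.85 ± 0.31 (SE) (edgeR adjusted p = 0.546). Ubb, a ubiquitin gene, and its copy Gm1821, whose reads may be shared, were picked out here after their values were seen. Ubb was at 696, 339, 271 and 614 CPM in healthy mice 1 to 4 and 814, 1384, 890.4, 1518 and 1336 CPM in sick mice 1, 3, 4, 5 and 6, and the groups did not overlap.

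Igkc, the kappa light chain of antibodies, had the smallest p in the fit to all 9 mice and was likewise singled out after its values were seen. It was at 65.8, 37.7, 271 and 117 CPM in healthy mice 1 to 4 and 1651, 489.9, 279, 304 and 398 CPM in sick mice 1, 3, 4, 5 and 6, above every healthy mouse in each sick mouse. The value of sick mouse 1 came mostly from 1 cell, as the lowest haemoglobin bin showed. In granulocyte progenitors Igkc was at 138, 176, 87.3 and 42 CPM in healthy mice 1 to 4 and 1477, 1912, 765, 659.6 and 428 CPM in sick mice 1, 3, 4, 5 and 6, a wider gap in the same direction, and in haemoglobin-rich cells at 239.5, 434, 819 and 272 CPM in healthy mice 1 to 4 and 409.9, 719, 514, 353 and 874 CPM in sick mice 1, 3, 4, 5 and 6, where the groups overlapped. B lineage markers, at 0 to 117 CPM in healthy and 39.1 to 147 CPM in sick mice, did not separate the groups.

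The lists of the erythroid programme had medians between -0.12 and 0.18, given here with the members whose unadjusted p was under 0.05 in either direction (up or down in sick mice). Erythroid transcription factors (12 tested, 0 up and 1 down, median log2 difference 0.08), signalling genes (3 tested, 0 up and 0 down, median log2 difference -0.12) and haem synthesis (12 tested, 1 up and 3 down, median log2 difference -0.08) stood beside a median of 0.02 over all tested genes, of which 4.31% were up and 2.86% down. The same values were taken for iron genes (6 tested, 1 up and 0 down, median log2 difference 0.04), membrane genes (16 tested, 1 up and 0 down, median log2 difference 0.02) and proteins of later stages (11 tested, 0 up and 0 down, median log2 difference 0.18). Ribosome biogenesis (17 tested, 0 up and 0 down, median log2 difference 0.08) and glycolysis (6 tested, 0 up and 0 down, median log2 difference 0.11) made up the rest. None of the stem and early progenitor genes passed the filter. Of these lists, no member was called, and a difference that missed the threshold in 2 against 5 mice does not show that levels were equal.

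Some members with an unadjusted p under 0.05 are given singly. They were chosen by p and not by size, and none passed the adjusted threshold. Of all tested genes, 4.31% were up and 2.86% down at that p. Abcb10 was at 310.4, 226, 949 and 759.8 CPM in healthy mice 1 to 4 and 274, 256, 272, 188 and 273 CPM in sick mice 1, 3, 4, 5 and 6, with a log2 difference of -0.87 ± 0.33 (SE) (edgeR adjusted p = 0.546). Its sign turned to 0.14 with a gate sum of 6 or more and to 2.17 without the cells that hold markers of other lineages. Both settings kept 6 mice and lost healthy mouse 4, which fell under 10 cells. Leaving out healthy mouse 4 alone gave -0.20, so the change of sign cannot be laid to the gate alone. Tmem14c (0.74 ± 0.33 (SE)), Blvra, which reduces biliverdin (-1.25 ± 0.56 (SE)), Add2, an adducin of the membrane skeleton (1.35 ± 0.51 (SE)), Lmo2, a partner of Tal1 (-0.81 ± 0.37 (SE)), and Fth1, ferritin heavy chain (0.52 ± 0.25 (SE)), had unadjusted p-values under 0.05 and adjusted ones of 0.546 to 0.688 in edgeR.

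Cell cycle genes lay on both sides. S phase genes (29 tested, 1 up and 1 down, median log2 difference -0.09) and G2 and M phase genes (29 tested, 1 up and 3 down, median log2 difference -0.12) had medians below that of all genes, where 4.31% were up and 2.86% down. Top2a, the topoisomerase of mitosis, was at 1053, 1357, 1085 and 1607 CPM in healthy mice 1 to 4 and 923, 761, 755, 681 and 664 CPM in sick mice 1, 3, 4, 5 and 6, lower in every sick than in every healthy mouse, with a log2 difference of -0.73 ± 0.24 (SE) (edgeR adjusted p = 0.412). Mcm5, part of the replicative helicase, was at 188, 189, 271 and 175 CPM in healthy mice 1 to 4 and 102, 104, 83, 83.8 and 103 CPM in sick mice 1, 3, 4, 5 and 6, also without overlap, while Mcm4 of the same complex had a log2 difference of 0.89 ± 0.39 (SE). Ccnb1, a mitotic cyclin, was higher in sick mice, at 28.2, 37.7, 0 and 29.2 CPM in healthy mice 1 to 4 and 93.9, 77.9, 106, 41.9 and 118 CPM in sick mice 1, 3, 4, 5 and 6. Kif11 (-1.03 ± 0.32 (SE)) and Cenpe (-0.79 ± 0.32 (SE)), motors of the spindle, were lower in the fit, and healthy mouse 3 had no Kif11 count. All 6 tested genes of the mitochondrially encoded list were negative, beside 1539 of 3178 tested genes. An unadjusted p under 0.05 was reached by 3, beside 2.86% of all tested genes lower at that p (mt-Nd5 -0.96 ± 0.35 (SE), mt-Cytb -0.61 ± 0.27 (SE) and mt-Nd1 -0.64 ± 0.31 (SE)). That list holds a small part of the mitochondrial counts. In healthy mouse 1 it summed to 2304 CPM, while all genes starting with mt- took 4.76% of the counts. mt-Nd5 was at 254, 264, 542 and 526 CPM in healthy mice 1 to 4 and 227, 197, 174, 136 and 125 CPM in sick mice 1, 3, 4, 5 and 6, lower in every sick mouse.

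Whether arthritis differed in its effect between progenitors and the other sets was tested with an interaction term in edgeR, with the mouse as a block. Against haemoglobin-rich cells, 2 of 4613 genes were called (0.0434%). These were Abcb10 (chr8:123952459-123983122, minus strand) and Gm45890, an antisense gene (chr8:123948790-123958935, plus strand) that overlaps it by 6477 bases, so their reads cannot be told apart where counting ignored strand. In haemoglobin-rich cells Abcb10 was at 92.1, 74.9, 106 and 63.2 CPM in healthy mice 1 to 4 and 289, 160.2, 297, 194 and 194 CPM in sick mice 1, 3, 4, 5 and 6, higher in every sick mouse, whereas in the progenitors the sick mean was the lower one. The difference of the log2 effects was -2.37 ± 0.48 (SE) for Abcb10 (edgeR adjusted p = 0.0122) and -3.17 ± 0.60 (SE) for Gm45890 (edgeR adjusted p = 0.00534). Over all 9 mice both calls held, at -2.25 (edgeR adjusted p = 0.00114) and -3.29 (edgeR adjusted p = 1.52e-05). Healthy mouse 4 had 759.8 CPM of Abcb10 and 731 CPM of Gm45890 in 11 progenitors, against 310.4 and 132 CPM in healthy mouse 1. Without healthy mouse 4, which left 1 healthy mouse, no gene was called, and the difference was -1.32 for Abcb10 and -1.21 for Gm45890 (edgeR adjusted p = 0.612 and 0.816). Without healthy mouse 1, 143 genes were called.

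Against granulocyte progenitors, 1 of 4511 genes was called (0.0222%). Fcnb, a ficolin of immature granulocytes, was at 1738, 2039, 1572 and 965 CPM in healthy mice 1 to 4 and 2979, 2425, 2629, 3100.2 and 3252 CPM in sick mice 1, 3, 4, 5 and 6 in granulocyte progenitors and at 705, 0, 0 and 1286 CPM in healthy mice 1 to 4 and 939, 475, 423, 743 and 339 CPM in sick mice 1, 3, 4, 5 and 6 in the erythroid gate. The difference of effects was -1.74 ± 0.32 (SE) (edgeR adjusted p = 0.00805), and it was not called over all 9 mice (edgeR adjusted p = 0.793) or without healthy mouse 4, which gave 0 calls. No class I or interferon gene was called in either interaction. For H2-D1 the difference of effects was 0.46 ± 0.44 (SE) against haemoglobin-rich cells (edgeR adjusted p = 0.951) and 0.77 ± 0.30 (SE) against granulocyte progenitors (edgeR adjusted p = 0.649). Ifi27l2a did not overlap between the groups in the other sets either, at 27.6, 25, 22.8 and 16.5 CPM in healthy mice 1 to 4 and 114, 82, 226, 103 and 176 CPM in sick mice 1, 3, 4, 5 and 6 in haemoglobin-rich cells and at 19.1, 17.6, 0 and 21 CPM in healthy mice 1 to 4 and 173, 133, 276, 167 and 79.5 CPM in sick mice 1, 3, 4, 5 and 6 in granulocyte progenitors. The median difference of effects over the 20 interferon genes tested was 0.71 against haemoglobin-rich cells and 1.00 against granulocyte progenitors. Over all tested genes the medians were 0.14 and 0.02. The unadjusted edgeR p was under 0.05 for 2 and 5 of the 20, beside 251 of 4613 and 295 of 4511 tested genes. Genes with no count in healthy progenitors enter these medians, such as Ifi27l2a (4.37 ± 1.97 (SE)) and Isg15 (3.82 ± 1.92 (SE)) against haemoglobin-rich cells. A stronger effect in the progenitors cannot be read from them.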

How the data were processed

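Seq-Well libraries of 9 whole left knee joints (4 healthy, 5 sick mice) were read from the deposited table of raw UMI counts (24296 genes by 16751 cells). Per the labels' protocols the Drop-seq pipeline made the counts; the submitters' processing notes name bcl2fastq, Picard, STAR, GRCm38 and mm9, without a role. The labels' protocol text names a human build, although the gene symbols are of mouse.

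Cells were taken by the gate as they stand in the deposited table, with no further filter. The members, gene lists and tests were chosen with earlier results of these data known. Gated counts were summed per mouse (7375 to 269469 counts), and CPM are a gene's counts divided by that sum and scaled to one common total. Mice with at least 10 gated cells (2 healthy, 5 sick) entered edgeR 4.0.16 (R 4.3.3) with filterByExpr, TMM normalization, the quasi-likelihood test and Benjamini-Hochberg adjustment over all tested genes at 0.05; the gate's own genes received no call. DESeq2 1.42.0 was an alternative. Single values were tested by exact two-sided permutation of mice (scipy 1.17.1). The scripts were tested on simulated data. The rule named up to 4 genes of each list by smallest p; of these, only those with an unadjusted p under 0.05 are given from the comparison of sick and healthy mice, beside the 20 genes highest against other cells and the 10 at each end of the haemoglobin order. The rule's 10 largest rises and falls were empty, since no gene passed; a few genes named by these rules are not reported here. Fold bounds use a floor of 3 counts over the healthy group. Of 24296 genes, 22894 matched GENCODE symbols, and the counting's use of strand is not given in the sources used here. Alternatives covered the gate, the denominators, thinning, size factors, filters and leaving out mice.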

Additional observations from a re-analysis of the deposited data

Results flagged for a closer look

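A sample was marked when its gap to the nearest of its group was wide for the group's range (Dixon's test at 95%), which chance does in about 1 of 20 groups; 13 marks came from 92 groups. Sick mouse 4 had a progenitor share of 3.44%, above the other sick mice. Sick mouse 1 had 1651 CPM of Igkc, mostly from 1 cell, and 1354 CPM of eosinophil markers. Healthy mouse 3, whose values rest on 4 cells, had 1763 CPM of Klf1, 5695 CPM over the genes of the label, 271 CPM of interferon-stimulated genes, 542 CPM of MHC class I genes and 271 CPM of fibroblast or bone markers. Sick mouse 6 had 1712 CPM of interferon-stimulated genes, the lowest of the sick mice. Healthy mouse 1 had 18.8 CPM of megakaryocyte markers and 132 CPM of mast cell or basophil markers, where the other 3 healthy mice lay lower. Sick mouse 4 had 67.9 CPM of mast cell or basophil markers, the lowest of its group, and sick mouse 3 had 193 CPM of T or NK cell markers.

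The effect of arthritis differed between cell sets by the interaction test for Abcb10 (-2.37 on the log2 scale) and Gm45890 (-3.17) against haemoglobin-rich cells and for Fcnb (-1.74) against granulocyte progenitors. All 3 calls were lost without healthy mouse 4, and those of Abcb10 and Gm45890 held over all 9 mice.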

How the results depend on the processing

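The difference in progenitor share (sick minus healthy, 0.925 percentage points) turned to -0.199 over cells with under 20% haemoglobin and to -0.306 without healthy mice 2, 3 and 4; it was 0.857 without gated cells holding markers of other lineages and 4.18 after thinning with a gate sum of 1 or more, both past the threshold, and 0.584 to 1.34 with 1 mouse left out. No per-mouse measure could pass with 2 mice against 5 and none did over all 9 (exact permutation p adjusted over 7 measures, 0.222 to 0.651), and several changed sign: S phase to 0.0121 and ribosomal protein genes to -0.652 points with a gate sum of 6 or more, and median counts to 212.5 over all 9 mice. With 1 mouse left out the differences ran from -267.6 to 199.4 median counts, -139.1 to 151.9 genes, -0.591 to 2.03 points of ribosomal protein genes, -4.65 to -1.04 of mitochondrial genes, -0.319 to -0.0599 of G2 and M phase, -0.866 to -0.587 of Gm42418 and -0.0306 to -0.00504 of S phase.

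Genes called higher and lower in sick mice, 0 and 0 in the 7 mice, were 2 and 0 with a gate sum of 3 or more, 0 and 3 with 6 or more, 7 and 1 under 30% haemoglobin, 1 and 3 without cells holding markers of other lineages, 0 and 2 with at least 20 cells per mouse or without healthy mice 2, 3 and 4, 8 and 0 over all 9 mice, 18 and 5 with no filter on low counts, and 0 to 3 and 0 to 2 with 1 mouse left out. Calls against haemoglobin-rich cells (2) were 4 with DESeq2 size factors, 1 with no filter, 4 over all 9 mice and 0 to 143 with 1 mouse left out. Calls against granulocyte progenitors (1) were 4 with no filter, 0 over all 9 mice and 0 to 3 with 1 mouse left out. Over 22 alternatives, 637 values of single genes kept their sign and side of the threshold, 33 passed it, 6 lost it and 4 changed sign. Not all 22 were distinct. A limit on detected genes and mitochondrial share kept all 274 cells and repeated the main fit. Leaving out healthy mouse 4, leaving out healthy mice 2, 3 and 4, and asking for 20 cells per mouse were one fit to the same 263 cells. The main fit of sick against healthy mice called no gene, so a kept side there means a gene that stayed uncalled. The sign changed for Abcb10 (0.14 with a gate sum of 6 or more, 2.17 without cells holding markers of other lineages, both without healthy mouse 4), Blvra (-1.68 to 0.99 with 1 mouse left out) and Hspa1a (-0.23 with the replicate block). Where an alternative left 1 healthy mouse, it was assumed to vary like the sick mice. Deviations of same-numbered mice correlated at 0.0356, 0.00193 and -0.0608 over 2125 genes, and those of the other pairs at -0.138 to 0.112. With values this noisy, a link between mice of the same number can be neither shown nor excluded. The replicate block gave 3 higher calls (Ighg1, Igkc and Ifi27l2a) and 0 lower. Fits over all 9 mice, the thinned gate sum of 1 or more and the removal of cells with eosinophil markers were chosen after the data were seen. The cause of these shifts was not tested. The 9 and 4 cells of healthy mice 2 and 3 set the limit of what the healthy group can show.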
